A study of Mus musculus with 5 samples.

Results

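DNA repair genes encode the proteins that detect and mend damaged DNA, and 39 of them were followed here by symbol among the 14454 genes listed for each line. They were taken by symbol, with no threshold on any value, and fall into 14 genes of homologous recombination, 4 of damage signalling, 4 of the Fanconi anaemia pathway, 5 of end joining, 2 of mismatch repair, 5 of nucleotide excision repair and 5 of base excision repair. The mRNA came from 5 derivatives of NIH/3T3, a mouse fibroblast line of embryonic origin that grows without limit. Human histone H2A, joined to the green fluorescent protein EGFP, had been integrated into all of them. A single line expressed the wild-type histone (wt). The other 4 lines, numbered 3, 6, 15 and 18, carried the T120D mutant, in which an aspartate replaces a threonine of the C-terminal tail of the histone. All were grown in DMEM with fetal calf serum and gentamicin, and the labels name no DNA-damaging agent. The promoter that drives the transgene, its level, and whether the numbered lines are separate clones or cultures are not stated in the labels.

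Each class of damage has its own repair route. Double-strand breaks are repaired by homologous recombination, which copies the sister chromatid and therefore works in S and G2 phase, or by end joining, which ligates the broken ends at any time in the cycle. Mismatch repair corrects errors of replication, nucleotide excision repair removes bulky lesions such as those made by ultraviolet light, and base excision repair replaces oxidised, deaminated or lost bases. Many recombination and mismatch genes are transcribed most in late G1 and S phase, under E2F factors, so their mRNA usually rises with the share of cycling cells. Threonine 120 of H2A is phosphorylated at mitotic centromeres by BUB1, and the title of the series links that mark to transformation and cyclin D1.

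The estimated depth was 2520000 to 2720000 reads per line, and the summed RPKM (reads corrected for the length of the transcript and the size of the library) was 158613.7 to 160825.1. Fibroblast markers were abundant, with all 10 tested and values up to 1360 RPKM. Of 5 epithelial, 4 endothelial and 5 macrophage markers looked for, only 2, 3 and 2 had values, and the rest could not be checked. The highest value of any line was 0.249 RPKM for the epithelial, 0.471 for the endothelial and 1.46 for the macrophage markers. Among the fibroblast markers 6 were lower (60%) and 1 was higher (10%) in T120D by the test given below. Over all tested genes 5.45% were lower and 7.65% higher. The median absolute difference between lines over 10052 genes was 0.166 to 0.183 on the log2(RPKM + 1) scale for pairs of T120D lines and 0.289 to 0.309 against the wt line. With 1 wt line, each test below sets the distance of that line against the spread of the 4 T120D lines, which may be partly technical. An effect of the mutant and a trait of the single wt line cannot be told apart. The intervals and p-values take wt lines to vary as the T120D lines do, which 1 line cannot show.

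Most DNA repair genes did not pass the test between T120D and wt. Of the 39 genes, 36 had a mean of at least 1 RPKM and were tested; Fancd2, Prkdc and Xpa were below it. Among the 36, 2 were higher in T120D, the mismatch repair gene Msh6 and the recombination gene Rad54l, and 0 were lower (limma, Benjamini-Hochberg adjusted p under 0.05 over all tested genes). Over all 10052 tested genes 13.1% were called, 7.65% higher and 5.45% lower, so the share of repair genes called higher, 5.56%, was near the background. At an unadjusted p under 0.05 in limma, 7 of the 36 were higher and 0 lower, where the shares over all tested genes were 15.2% and 13.4%. The median log2 difference of the 36 genes was 0.17, against -0.02 for all tested genes. For 15 of the 36 genes (41.7%) wt had the lowest value of the 5 lines, where this held for 31.1% of all tested genes. It had the highest value for 4 (11.1%), against 32.3% of all tested genes. In bulk RNA, a different share of cycling cells and a different amount of RNA per cell cannot be told apart.

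**Figure D1:**
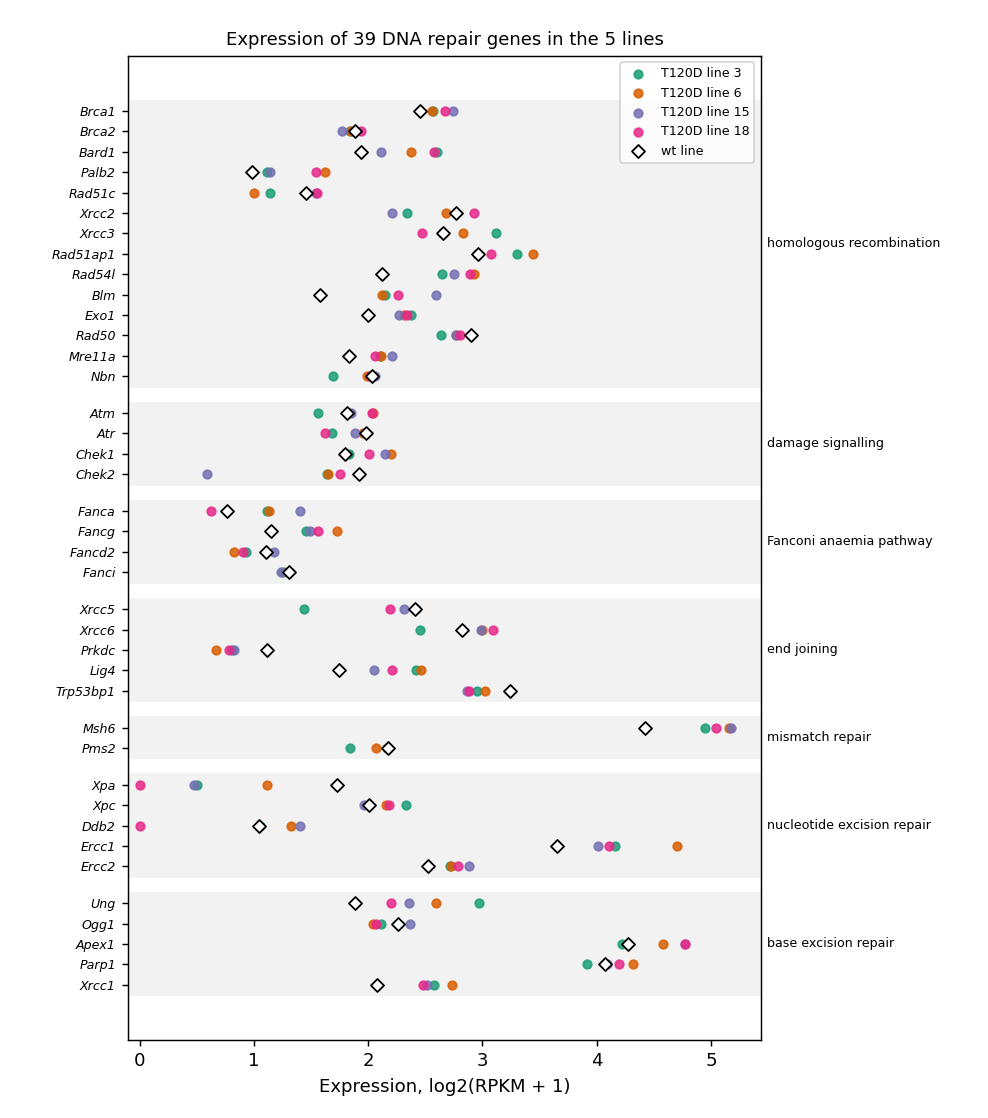
Expression of the 39 DNA repair genes on the log2(RPKM + 1) scale, with 1 coloured point for each T120D line and an open diamond for the wt line, grouped by repair route. Most genes lie below 10 RPKM, where this scale draws low values together. By mean RPKM, 11 of the 36 tested genes were at least 1.5-fold higher in T120D and 1 was at least 1.5-fold lower. For Msh6 the 4 T120D lines, at 29.9 to 35.2 RPKM, all lie above the wt line at 20.4.

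Promoter sequence was looked at first for the letters of the E2F site, since E2F factors are a known link between the cell cycle and these genes. RefSeq promoter windows of GRCm38.p6, from 250 bases before to 50 bases after a transcript start, were found for 31 of the 39 genes. The letters TTTGGCGC, TTTGCCGC, TTTCGCGC and TTTCCCGC were searched on both strands. At least 1 of them occurred in the windows of 7 of the 31 genes (22.6%), in 2.6% of all 27025 genes with a window and in 5.22% of the 7588 tested genes with one. Among the proliferation markers compared further below, 8 of the 20 genes with a window (40%) held such letters. The matches are shown because the differences of these 7 genes are set side by side next. Each stretch has 30 bases, written 5′ to 3′ on the strand of the gene, with the matched letters in capitals.
Brca2 (chr5:150522442-150522471, plus strand): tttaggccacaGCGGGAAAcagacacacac
Bard1 (chr1:71103163-71103192, minus strand): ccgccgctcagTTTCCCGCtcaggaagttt
Rad51c (chr11:87404941-87404970, minus strand): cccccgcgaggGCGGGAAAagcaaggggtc
Rad51c (chr11:87404477-87404506, minus strand): gtttccagcgcTTTCGCGCctcttgctcta
Chek2 (chr5:110839820-110839849, plus strand): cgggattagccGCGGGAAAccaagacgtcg
Fancg (chr4:43010335-43010364, minus strand): tttcttttcagTTTCCCGCggaaccgtctc
Xrcc6 (chr15:82016312-82016341, plus strand): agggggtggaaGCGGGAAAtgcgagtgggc
Msh6 (chr17:87975054-87975083, plus strand): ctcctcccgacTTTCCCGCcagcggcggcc

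The 7 genes with these letters had differences of both signs. Their log2 differences were 0.66 for Msh6, 0.48 for Bard1, 0.41 for Fancg, 0.06 for Xrcc6, -0.03 for Brca2, -0.15 for Rad51c and -0.51 for Chek2, and Msh6 was the 1 gene of them called. In Msh6 the match begins at base 16 after the start, and in Rad51c a match lies 5 bases before 1 listed start and another at base 12 after the other. A letter match is a description of the sequence, not a site of binding.

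Msh6 was the most abundant of the 39 genes and had the lowest adjusted p among them. It encodes a subunit of the complex that recognises base mismatches and small loops after replication. Its RPKM values were 29.9, 34.7, 35.2 and 32.1 in T120D lines 3, 6, 15 and 18, and 20.4 in wt. All 4 T120D lines thus lay above the wt line, and the spread among them was small. The T120D mean was 33 ± 2.5 RPKM (SD, n = 4), 1.62-fold the wt value, with a log2 difference of 0.66 (SE 0.13, 95% confidence interval 0.37 to 0.96, limma adjusted p = 0.0122). By limma without an intensity trend the adjusted p was 0.0529. At the estimated depth the gene rested on about 236 reads in the wt line and 320 to 399 in the T120D lines.

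Rad54l was higher at the edge of the threshold. Its product is a motor protein that acts in strand exchange with the intact sister DNA. It stood at 5.27, 6.6, 5.74 and 6.42 RPKM in T120D lines 3, 6, 15 and 18 and at 3.35 in the wt line, so the groups did not overlap. The T120D mean of 6.01 ± 0.615 RPKM (SD, n = 4) was 1.79-fold the wt value, with a log2 difference of 0.68 (SE 0.19, 95% confidence interval 0.25 to 1.12, limma adjusted p = 0.0465). The wt value rested on about 27.6 reads. Leaving out any 1 of the 4 T120D lines ended this call, with limma adjusted p of 0.056 without line 3, 0.0705 without line 6, 0.074 without line 15 and 0.0871 without line 18. The call also ended with low genes kept in the fit (0.0794), without an intensity trend (0.0555) and with lines 3, 15 and 18 averaged to 1 sample (0.0609).

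The promoter windows of the 2 called genes are shown to set their sequence beside the difference. RefSeq lists 2 starts for Rad54l, 1 base apart, and the window of 1 of them is printed. Capitals mark the E2F-type letters given above and the CCAAT box (CCAAT on either strand), an element bound by the factor NF-Y in many cell cycle promoters. The letters TTTGAA of the CHR element and an NRF1 site were searched on both strands too and are in neither printed window.
Rad54l (chr4:116123641-116123940, minus strand): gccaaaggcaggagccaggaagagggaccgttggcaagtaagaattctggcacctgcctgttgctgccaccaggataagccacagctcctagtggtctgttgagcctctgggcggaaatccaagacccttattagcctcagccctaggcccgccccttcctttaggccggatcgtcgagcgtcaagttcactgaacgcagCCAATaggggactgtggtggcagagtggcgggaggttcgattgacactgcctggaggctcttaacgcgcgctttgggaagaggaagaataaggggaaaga
Msh6 (chr17:87974800-87975099, plus strand): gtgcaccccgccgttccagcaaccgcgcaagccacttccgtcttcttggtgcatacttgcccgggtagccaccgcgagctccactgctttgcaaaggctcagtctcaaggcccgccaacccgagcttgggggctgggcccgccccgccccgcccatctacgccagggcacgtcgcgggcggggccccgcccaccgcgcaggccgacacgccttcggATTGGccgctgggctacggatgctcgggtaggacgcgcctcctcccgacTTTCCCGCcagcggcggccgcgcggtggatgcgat

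The printed Rad54l window holds a CCAAT box that begins 50 bases before the start. The Msh6 window holds one on the opposite strand, 34 bases before the start, beside the E2F-type letters after it. Over the 34 windows of the repair genes, 58.8% held a CCAAT box, 2.94% the CHR letters and 8.82% the NRF1-type letters. Among all 32851 promoter windows these shares were 37.4%, 17.9% and 2.27%, and among the 9695 windows of tested genes they were 38.5%, 11.6% and 5.61%. In the 22 windows of the proliferation markers they were 72.7%, 27.3% and 0%. Exons of Msh6 overlap those of Fbxo11 on the opposite strand in the GRCm38 annotation, and exons of Rad54l overlap those of Lrrc41. Since no source used here gives the use of strand in counting, reads of such partners may be shared. Fbxo11 was at 10.3 RPKM in T120D and 13.3 in wt (log2 difference -0.33), and Lrrc41 at 24.6 and 23.8 (0.05). In all, 14 of the 39 genes share exon bases with an opposite-strand gene listed for these lines: Rad54l, Mre11a, Atr, Fanca, Fancd2, Fanci, Xrcc6, Trp53bp1, Msh6, Xpa, Ddb2, Ercc1, Ercc2 and Ogg1. Neither Fbxo11 nor Lrrc41 was called, and their part in the values of Msh6 and Rad54l was not tested.

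Apart from Rad54l, the factors of homologous recombination did not pass the test. Of 14 genes, 1 was called higher (Rad54l) and 0 lower, with a median log2 difference of 0.21. Brca1, whose product directs broken ends to recombination, was at 4.94, 4.89, 5.71 and 5.37 RPKM in T120D lines 3, 6, 15 and 18 and at 4.47 in wt (log2 difference 0.18, 95% confidence interval -0.23 to 0.6). All T120D values lay above the wt value, and the gene was not called. Its obligate partner Bard1 had 3.31 to 5.08 RPKM in the T120D lines against 2.83 in wt (0.48, interval -0.06 to 1.02). Brca2, a mediator of strand exchange, was at 2.41 to 2.83 RPKM against 2.69, with the wt line inside the T120D range (-0.03, interval -0.52 to 0.45). Palb2, the bridge between BRCA1 and BRCA2, was at 1.16, 2.07, 1.2 and 1.92 RPKM against 0.979 (0.37), a level of about 11 to 21 reads in the T120D lines.

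The accessory factors of strand exchange gave values on both sides of wt. Rad51c had 1 to 1.93 RPKM in T120D and 1.74 in wt, Xrcc2 3.62 to 6.61 and 5.82, and Xrcc3 4.54 to 7.67 and 5.3. In each of these 3 genes, which assist the early steps of recombination, the wt line lay within the T120D range, and the log2 differences were -0.15, -0.23 and 0.11. Rad51ap1, another accessory factor of recombination, was at 6.76 to 9.86 RPKM against 6.79 (log2 difference 0.23). Rad51c, Xrcc2 and Xrcc3 each varied by more than 20% among the T120D lines, with coefficients of variation of 31.7%, 27.5% and 22.8%.

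The helicase and nuclease genes Blm and Exo1 had T120D values above wt in every line, without a call. Blm, mutated in Bloom syndrome, had the largest difference of the 36 tested genes, with 3.43, 3.36, 5.05 and 3.79 RPKM in T120D lines 3, 6, 15 and 18 and 1.99 in wt. The groups did not overlap, but the spread among the T120D lines left its log2 difference of 0.7 (SE 0.24, 95% confidence interval 0.16 to 1.25) above the threshold (limma adjusted p = 0.0904). Exo1, an exonuclease that resects broken ends and excises mismatches, was at 3.82 to 4.17 RPKM against 3 (0.32, interval -0.11 to 0.76). The 3 subunits of the MRN complex, the first sensor of double-strand breaks, lay on both sides of wt. Mre11a had 3.16 to 3.63 RPKM against 2.56 in wt, Rad50 5.22 to 5.97 against 6.48, and Nbn 2.22 to 3.17 against 3.09. The log2 differences of the 3 were 0.29, -0.16 and -0.09, none called.

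The kinases of damage signalling were low and not called. Atm, which responds to double-strand breaks, was at 1.95, 3.12, 2.61 and 3.08 RPKM in T120D lines 3, 6, 15 and 18 and at 2.51 in wt (log2 difference 0.06, 95% confidence interval -0.52 to 0.63). Atr, which responds to stalled forks, was at 2.07 to 2.88 RPKM against 2.95 (-0.2). Their effector kinases lay on either side: Chek1 had 2.56 to 3.59 RPKM against 2.48 (0.25), and Chek2 0.502 to 2.36 against 2.77 (-0.51, interval -1.47 to 0.45). Chek2 rested on about 3.03 reads in line 15, and its interval is among the widest.

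Fanconi anaemia genes, which act on cross-links between DNA strands, were among the lowest of the list. Fanca and Fancg, subunits of the core ubiquitin ligase, were at 0.542 to 1.65 and 1.74 to 2.31 RPKM in the T120D lines and at 0.692 and 1.21 in wt, with log2 differences of 0.31 and 0.41. Their substrates Fancd2 and Fanci were at 0.772 to 1.26 and 1.36 to 1.47 RPKM against 1.15 and 1.47. No gene of this route was called, and Fancd2, at a mean of 0.993 RPKM over the 5 lines, lay just under the filter. Fanca, at a mean of 1.05, lay just above it.

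**Figure D2:**
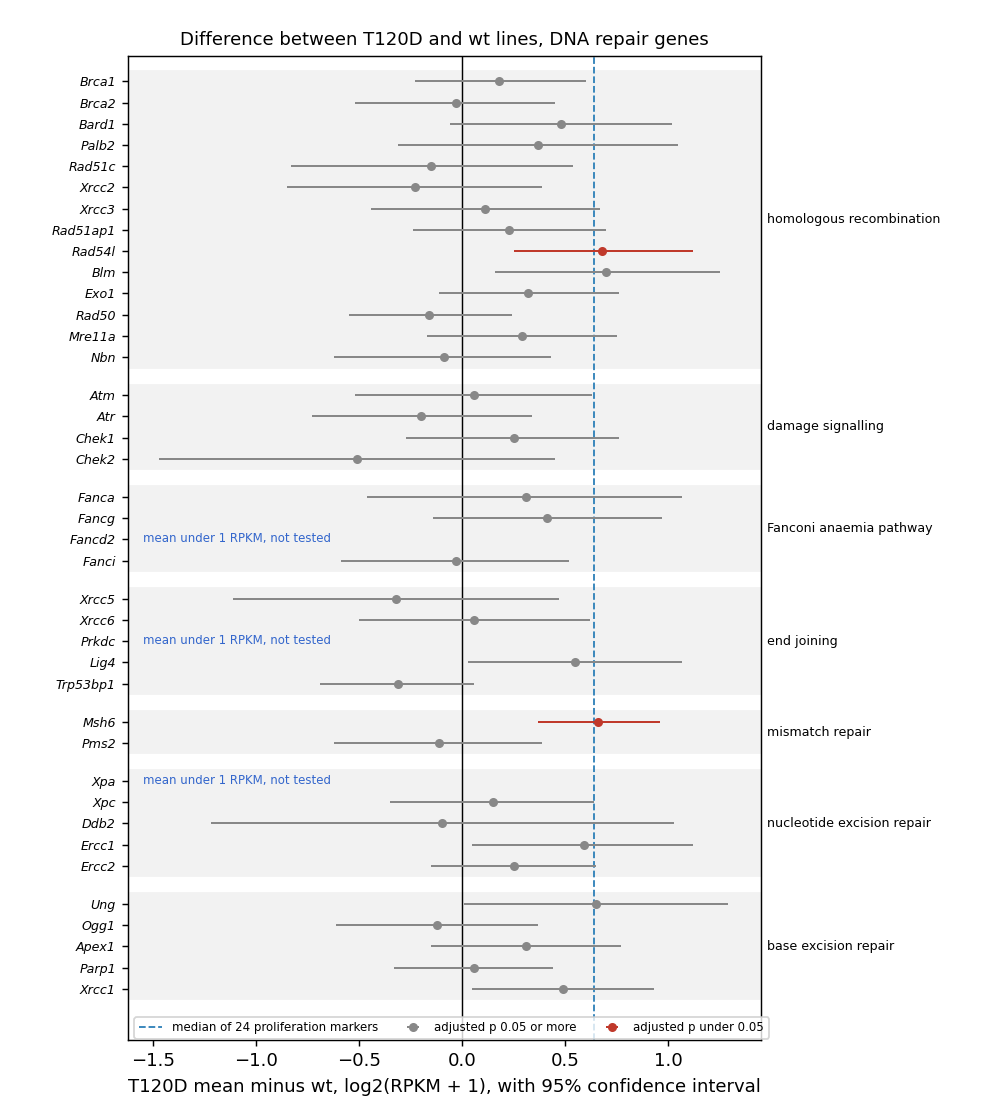
Difference between the T120D mean and the wt line for each DNA repair gene on the log2(RPKM + 1) scale, with 95% confidence intervals from limma; red marks genes with an adjusted p under 0.05 and the dashed line the median of 24 proliferation markers, 0.64. The intervals of Msh6 and Rad54l reach that line, and 16 of the 36 intervals end below it, a share not counted over all tested genes. This scale understates differences of low genes.

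No end joining gene was called by limma, and the median log2 difference of the 4 tested was -0.13. The Ku heterodimer, which caps broken ends, is made by Xrcc5 (Ku80) and Xrcc6 (Ku70). Xrcc5 was at 1.7, 4.33, 3.97 and 3.56 RPKM in T120D lines 3, 6, 15 and 18 and at 4.3 in wt. Xrcc6 was at 4.49, 6.99, 6.93 and 7.54 RPKM in the same order and at 6.07 in wt. Both Ku subunits were thus lowest in line 3, and for both the wt line lay within the T120D range, with log2 differences of -0.32 and 0.06. These values correspond to about 11 reads of Xrcc5 and 37.4 reads of Xrcc6 in line 3.

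The other end joining genes lay on both sides of wt. Lig4, the ligase of the route, was at 4.36, 4.52, 3.13 and 3.63 RPKM in T120D lines 3, 6, 15 and 18 and at 2.34 in wt, a log2 difference of 0.55 (95% confidence interval 0.03 to 1.07, limma adjusted p = 0.158). Trp53bp1 encodes 53BP1, which protects ends from resection and so opposes BRCA1. It was at 6.74, 7.1, 6.28 and 6.35 RPKM against 8.45 in wt (-0.31, interval -0.69 to 0.06, limma adjusted p = 0.255). For Lig4 all T120D lines lay above wt and for Trp53bp1 all lay below it, and neither was called. Prkdc, the catalytic subunit of DNA-PK, was at 0.749, 0.583, 0.771 and 0.719 RPKM against 1.16 in wt, without overlap, and was too low to be tested. Without the filter on low values its log2 difference was -0.34 (limma adjusted p = 0.142).

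The second mismatch repair gene was not called. Pms2, a subunit of the endonuclease that acts after recognition, was at 2.57, 3.2, 3.49 and 3.52 RPKM in T120D lines 3, 6, 15 and 18 and at 3.52 in wt, with a log2 difference of -0.11 (95% confidence interval -0.62 to 0.39). Pms2 and the neighbouring Rsph10b share exon bases on the same strand, so its reads may be shared.

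In nucleotide excision repair 0 of 4 tested genes were called (limma), and the low genes were poorly measured. Ercc1, a subunit of the nuclease that cuts on the 5′ side of a lesion, was at 16.9, 25, 15.1 and 16.2 RPKM in T120D lines 3, 6, 15 and 18 and at 11.6 in wt (log2 difference 0.59, 95% confidence interval 0.05 to 1.12, limma adjusted p = 0.14). All T120D lines lay above wt, with line 6 well above the others. Exons of Ercc1 overlap Cd3eap on the opposite strand, which was called higher (16.8 RPKM against 10.3, log2 difference 0.66, limma adjusted p = 0.0203), and its part in the Ercc1 values was not tested. Ercc2, a helicase of TFIIH, was at 5.55 to 6.35 RPKM against 4.76 (0.25). Xpc, the damage sensor of the genome-wide branch, was at 2.9 to 4.03 against 3.03 (0.15).

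Ddb2 and Xpa carried too few reads to be compared. Ddb2, which finds ultraviolet lesions in chromatin, was at 1.07, 1.51, 1.65 and 3.1e-39 RPKM in T120D lines 3, 6, 15 and 18 and at 1.06 in wt. The value of line 18 is in effect 0, and the interval of the log2 difference of -0.1 ran from -1.22 to 1.03. Xpa, a scaffold of the incision complex, was at 0.414, 1.16 and 0.393 RPKM in lines 3, 6 and 15, was listed at 0 in line 18 and was at 2.3 in wt. That is at most about 3.89 reads in a T120D line and 7.78 in the wt line. Xpa was not tested; without the filter on low values its log2 difference was -1.2 (limma adjusted p = 0.189).

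No base excision repair gene of the 5 was called (limma). In 2 of the 5, Ung and Xrcc1, wt lay below all T120D lines, as it did for 31.1% of all tested genes. Ung, the glycosylase that removes uracil from DNA, was at 6.85, 5.03, 4.12 and 3.58 RPKM in T120D lines 3, 6, 15 and 18 and at 2.68 in wt (log2 difference 0.65, 95% confidence interval 0.01 to 1.29, limma adjusted p = 0.172). Xrcc1, the scaffold of single-strand break repair, was at 4.95, 5.65, 4.71 and 4.58 RPKM against 3.23 (0.49, interval 0.05 to 0.93, limma adjusted p = 0.132). The spread of Ung among the T120D lines was wide, with a coefficient of variation of 29.2%. Apex1, the endonuclease that cuts at lost bases, was at 17.7 to 26.4 RPKM against 18.4 (0.31). Parp1, which senses strand breaks, had 14.1 to 19 against 15.8 (0.06), and Ogg1, the glycosylase for oxidised guanine, 3.11 to 4.14 against 3.8 (-0.12). For these 3 genes the wt line lay within the T120D range.

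A missed threshold does not show that a gene was the same in both groups, and the intervals show how far each comparison reaches. For 24 of the 34 tested genes that were not called, the 95% confidence interval lay between -1 and 1. This leaves out a 2-fold change of RPKM + 1, but not always one of RPKM. For low genes a 2-fold change of RPKM is clearly less than 1 on this scale and may lie inside the interval. The upper end reached 1 or more for 8 genes and the lower end -1 or less for 3. Half-widths ran from 0.29 for Msh6 to 1.13 for Ddb2. Only 13 of the 39 genes had a mean of at least 5 RPKM, and 6 had under 10 estimated reads in some line.

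**Figure D3:**
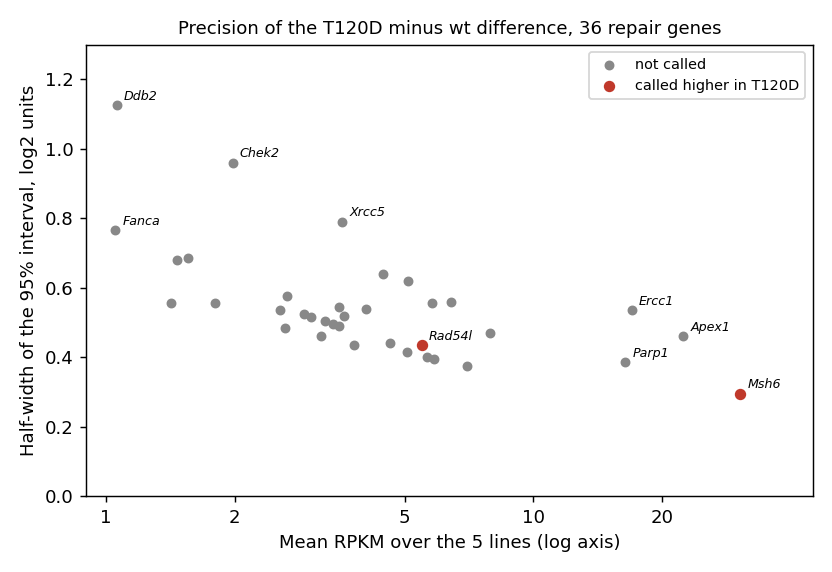
Half-width of the 95% confidence interval of the T120D minus wt difference (log2 units) against mean RPKM over the 5 lines (log axis) for the 36 tested repair genes. Intervals are narrowest for the abundant Msh6 (0.29) and widest for Ddb2 (1.13), which had a mean of 1.06 RPKM.

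The T120D lines also differed among themselves. Line 3 had the lowest value of the 4 for 14 of the 36 tested genes, line 15 for 11, line 18 for 7 and line 6 for 4. The highest value was in line 6 for 13, in line 15 for 10, in line 18 for 8 and in line 3 for 5. For any gene some line is lowest and some line highest. Such counts were not made over all tested genes, so whether they are particular to the repair genes cannot be told. The summed RPKM of the 39 genes was 198, 234, 214 and 215 in T120D lines 3, 6, 15 and 18 and 179 in wt, a sum to which Msh6, Apex1, Ercc1 and Parp1 contribute most.

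Other genes of the same routes came from a list of 123. Of 114 tested, 7 were higher (6.14%) and 1 was lower in T120D, with a median log2 difference of 0.11. The 7 genes were Fancb, Cdc25a, Apex2, Fen1, Rpa1, Rad23b and Pcna. Fancb, a Fanconi core subunit, was at 9.63, 5.75, 11.3 and 7.96 RPKM in T120D lines 3, 6, 15 and 18 against 1.46 in wt, and its log2 difference was 1.94 with an SE of 0.29 (adjusted p = 0.00365 by limma). It was the one Fanconi gene of 10 tested in that list to be called. With low genes kept in the fit, Fancb missed the threshold (limma adjusted p = 0.0567).

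Several of the others act at replication forks as well as in repair. Cdc25a, the phosphatase that the checkpoint kinases inhibit, was at 7.75 ± 0.317 RPKM (SD, n = 4) against 3.03 (log2 difference 1.12). Fen1, the flap nuclease, was at 36.9 ± 2.26 RPKM against 20.9 (0.79). Rpa1, of the single-strand binding protein, was at 44.7 ± 1.42 RPKM against 28.4 (0.64), and Pcna, the sliding clamp, at 69.7 ± 5.67 against 49.5 (0.48). The limma adjusted p of these 4 genes were 0.00352, 0.00419, 0.00633 and 0.0302. Apex2, a relative of Apex1, and Rad23b, a partner of XPC, had log2 differences of 0.98 and 0.57 (limma adjusted p = 0.0217 and 0.0121). The 1 lower gene was Neil3, a glycosylase that also unhooks cross-links, at 3.69, 3.28, 2.67 and 3.54 RPKM against 6.67 (-0.84, limma adjusted p = 0.0334). All 4 T120D lines were below wt for Neil3, and the call ended without line 15 (limma adjusted p = 0.0543) or line 18 (0.052). The call of Pcna ended without line 15 (0.0566) and without an intensity trend (0.115), which also ended that of Rad23b (0.071). With low genes kept in the fit, the limma adjusted p was 0.0895 for Pcna, 0.0703 for Apex2 and 0.0763 for Neil3.

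By route, the other genes of homologous recombination had 1 of 28 called higher, damage signalling 1 of 15, mismatch repair 1 of 10, nucleotide excision repair 1 of 17 and base excision repair 2 of 16. End joining and translesion synthesis with direct reversal had 0 of 9 each (limma). Their medians were 0.23, 0.25, 0.22, -0.26, -0.02, 0.06 and -0.12 in that order.

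Proliferation markers are set beside the repair genes because several repair genes are transcribed with the cell cycle. Of 24 tested, 14 were higher (58.3%) and 0 lower in T120D by limma, with a median log2 difference of 0.64. Rrm2, which makes deoxyribonucleotides, had a log2 difference of 1.15, and Mybl2, Bub1 and Birc5 had log2 differences of 0.98, 0.91 and 0.87. The 10 markers that were not called included Mki67 (0.05), Ccna2 (0.05), Plk1 (0.1) and Top2a (0.21). For Mki67, Ccna2 and Plk1 the wt line lay within the T120D range. For 16 of the 36 repair genes the upper end of the interval was below the median of these markers. That share was not counted over all tested genes, so whether it is particular to the repair genes cannot be told. The log2(RPKM + 1) scale understates differences of low genes, and most repair genes are low. At the same 1.62-fold ratio of T120D mean to wt, the log2 difference was 0.37 for Palb2 and 0.66 for Msh6. Part of the distance between the lists may therefore come from the scale. The difference between the lists, and the part of proliferation in the values of Msh6 and Rad54l, was not tested. p53 targets, a list to which Ddb2 and Xpc are often added, had 3 of 17 higher and 2 lower, with a median of 0.08. Mdm2 and Ei24 were among the higher genes (log2 differences 0.85 and 0.57), and Fas and Trp53inp1 were the lower ones (-1.19 and -1.03). With low genes kept in the fit the calls of Mybl2, Bub1, Fas and Ei24 ended (limma adjusted p = 0.0904, 0.0616, 0.0952 and 0.0817), and that of Ei24 also ended without line 3 (0.0667), without line 15 (0.065) and without an intensity trend (0.0847).

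**Figure D4:**
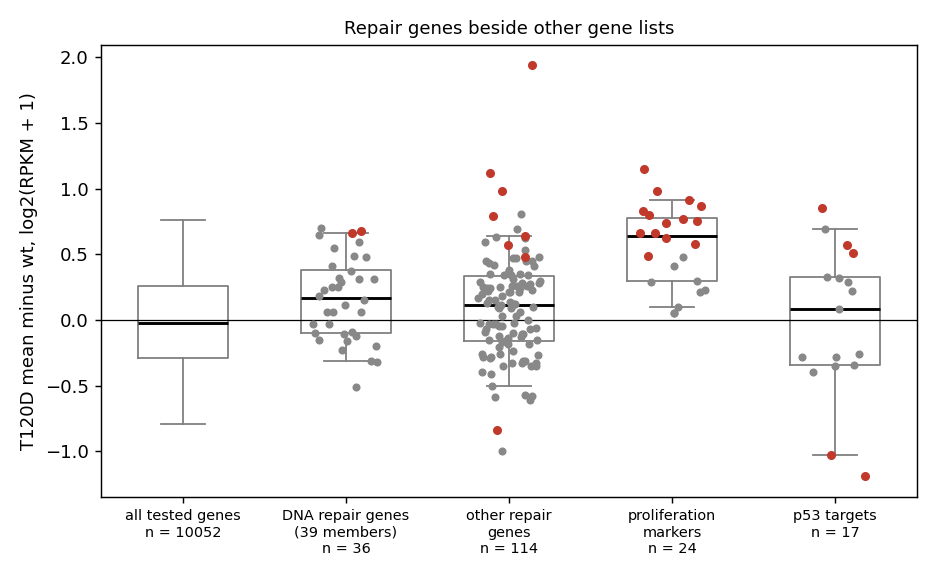
Difference between the T120D mean and the wt line on the log2(RPKM + 1) scale for all tested genes, the repair genes, other repair genes, proliferation markers and p53 targets. Boxes span the quartiles with the median as a line, whiskers the 5th to 95th percentiles, and red points are called genes. The median is 0.17 for the repair genes and 0.64 for the proliferation markers, on a scale that understates differences of low genes.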

How the data were processed

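Messenger RNA of 5 NIH/3T3 lines (4 T120D, 1 wt) was sequenced after stranded TruSeq library preparation, per the labels' protocols. The authors deposited RPKM values per gene, 1 table per line; the submitters' processing notes name Partek and build mm9. Aligner, annotation and strand setting were not given. The members and gene lists were chosen with earlier results of these data known. Values were taken as log2(RPKM + 1), which understates differences of low genes. Genes averaging 1 RPKM or more were fitted with limma 3.58.1 in R 4.3.3 (empirical Bayes with trend, two-sided, 3 residual and 5.99 prior degrees of freedom), with Benjamini-Hochberg adjustment over 10052 genes. The fit was tried on simulated data with changes placed only in better expressed genes. It recovered 11% of true log2 differences of 0.5 and 73% of those of 1. These rates do not cover low genes, and most repair genes are low. The simulated wt line was given the spread of the T120D lines. A permutation test was not used, since 1 wt line among 5 gives a one-sided p of 0.2 at best.

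Depth was estimated from low values of genes with a single GENCODE transcript (GRCm38), as the depth at which the largest share came out whole. At that depth 48.3% to 53.1% were whole within 0.05 reads. Chance gives 10% at a depth fixed beforehand, and its share at a depth chosen this way was not worked out. Reads per gene use the longest coding transcript and are approximate. Any member could be named. Of the other lists, up to 4 called genes with the largest difference were, per route for repair genes. The proliferation markers named as not called were chosen after seeing the data. Alternatives covered pseudocount, filter, trend, scaling, averaging of lines 3, 15 and 18, and leaving out each T120D line.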

Additional observations from a re-analysis of the deposited data

Results flagged for a closer look

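In 2 of the 39 repair genes, 1 T120D line stood apart from the other 3 by more than a gap test at the 95% level allows; chance flags about 1 in 20 groups. Chek2 was at 0.502 RPKM in T120D line 15, against 2.11, 2.14 and 2.36 in the other T120D lines, a gap of 0.903 of the range on the log2(RPKM + 1) scale. Xrcc6 was at 4.49 RPKM in T120D line 3, against 6.93 to 7.54, a gap of 0.832 of the range. Among the 16 called genes named from the other lists, Trp53inp1 was at 9.07 RPKM in T120D line 3, against 7.03, 7.22 and 7.09.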

How the results depend on the processing

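The count of repair genes called higher was 2 and fell to 1 without the filter on low values, to 0 by limma without a trend and to 1 with lines 3, 15 and 18 averaged to 1 sample. Leaving out 1 T120D line in turn gave 1 to 1, Msh6 in each case. Msh6 was called in 10 of 11 alternatives and Rad54l in 4 of 11, with log2 differences of 0.61 to 0.71 and 0.64 to 0.82. The count called lower was 0 in all alternatives, and no tested repair gene that was not called became called. Over all genes, 769 were higher and 548 lower; without the filter 434 were higher, and by limma without a trend 455 and 361, and leaving out 1 line gave 559 to 799 and 400 to 596. Higher genes made up 58.4% of the calls, and 45.8% without the filter. The following alternatives were chosen after seeing the data. Other repair genes called higher numbered 4 without the filter and 6 to 7 when 1 line was left out. Those called lower numbered 0 without the filter, 0 at a mean of at least 5 RPKM, 2 with the 3 lines averaged and 0 to 1 when 1 line was left out. Proliferation markers called higher were 14, with 8 without the filter, 10 to 14 in the other alternatives and 11 to 13 when 1 line was left out. The cause was not tested in any of these. No paired analysis was possible because there was only 1 wt line. Depth limits the 6 repair genes with under 10 estimated reads in some line.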
